A study of Mus musculus with 8 samples.

Results

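Purified alpha cells and purified beta cells from the pancreatic islets of adult mice were compared, with 3 libraries of each out of 8 in the series. The other 2 libraries, of cells that the labels call transdifferentiated, were not used. The 6 libraries were taken by their labels, and the genes compared are the 12751 of 46959 table entries with at least 1 RPKM (reads scaled by gene length and by the reads of the library) in at least 2 of the 6. Per the labels, the mice came from a cross that combined Ins1-H2b-mCherry, a red nuclear reporter in cells that use the Ins1 gene, with Gcg-cre and a floxed YFP allele. Gcg-cre switches on YFP for good in cells that have used the glucagon gene and in their descendants, so the YFP label records a past as well as a present use of that gene. Alpha cells were sorted as YFP positive and beta cells as mCherry positive, and reporter alleles were thus carried by the donors of both groups. The design text names pools of 10 to 12 triple transgenic mice of 1 sex, and also pools of bitransgenic females, without saying which libraries the latter concern. Islets of both groups were kept overnight in RPMI with 5.5 mM glucose and serum before dissociation and sorting. Alpha replicates 1 and 2 were male and replicate 3 female, while beta replicates 1 and 2 were female and replicate 3 male.

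Alpha and beta cells are the most numerous endocrine cells of the islet. Beta cells take up and burn glucose, close ATP-sensitive potassium channels, take in calcium and release insulin. Alpha cells share much of that machinery but release glucagon when glucose is low and in response to amino acids and adrenaline. Both arise from the same endocrine progenitors, and their identities are kept by transcription factors such as Irx proteins on the alpha side and Pdx1, Nkx6-1 and Mafa on the beta side.

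Reads recovered from the steps of the RPKM values came to 12938400 to 14124252 per alpha library and 14364674 to 21439193 per beta library, so that 1 read of a 2 kb gene was worth 0.0234 to 0.0387 RPKM. Gcg took 25.4% to 29.3% of the reads of an alpha library, and Ins2 took 9.38% to 12.7% of those of a beta library. The titles give alpha replicates 1 and 2 the same number, and likewise beta replicates 1 and 2. Every pair of libraries within a group differed by more than counting noise (chi-square per degree of freedom of at least 12.2), so none was a second deposit of another library. This does not show that they came from separate pools, which the labels do not say, and the spread behind each p-value may be technical in part. The X-linked Xist and the Y-linked Ddx3y, Eif2s3y, Kdm5d and Uty matched the labelled sex in all 6 libraries.

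Both labels held against the marker genes of the cells. Gcg, which encodes glucagon and lies at chr2:62474530-62483650, minus strand (GRCm38, GENCODE M21), measured 196491, 170137 and 172028 RPKM in alpha and 478, 1773 and 625 RPKM in beta for replicates 1, 2 and 3 of each group, the order used throughout. Ins2, an insulin gene at chr7:142678656-142743381, minus strand, measured 1047, 1088 and 819.7 RPKM in alpha and 141568, 115974 and 157458 RPKM in beta. The groups lay far apart for each, and beta replicate 2 held the most Gcg among the beta libraries. The beta mean of Gcg was 0.534% of its alpha mean, and the alpha mean of Ins2 was 0.712% of its beta mean. Whether RNA of the other cell type makes up such low levels was not tested. In sorted cells measured in bulk, fewer cells of a type and less RNA per cell cannot be told apart.

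Markers of other pancreatic cells were detected at uneven levels. Whether their RNA came from such cells or from the sorted cells themselves was not tested. The summed level of 16 acinar markers, digestive enzymes of the exocrine pancreas among them, was 51.5, 3250.4 and 771 RPKM in alpha and 149, 4366 and 2073 RPKM in beta. The groups overlapped, none of the 14 members tested was called, and replicate 2 held the most in each group. Immune markers moved with the groups in their summed level, which was 24.0 to 43.3 RPKM in alpha and 130.0 to 153 RPKM in beta. All 12 members tested of 19 were higher in beta. Those near 0 in alpha could pass the filter only through beta libraries, which fixed their direction beforehand. Among those tested, Lyz2, a lysozyme of macrophages, measured 0, 0 and 0.05603 RPKM in alpha and 5.33, 3.29 and 2.75 RPKM in beta. The white cell marker Ptprc reached at most 0.133 RPKM in any library. It failed the filter, as did Csf1r, Adgre1, Itgam, Itgax, Cd3e and Cd79a. Summed levels of 3 markers of PP and epsilon cells were 7961 to 13025 RPKM in alpha and 590 to 1274 RPKM in beta. Those of 9 delta cell markers were 1393 to 3225 RPKM in alpha and 366 to 948 RPKM in beta, mostly Sst, and of the 6 tested 3 were higher in alpha and 2 higher in beta. Those of 12 duct cell markers were 870 to 1957 RPKM in alpha and 489 to 704 RPKM in beta, and of the 8 tested 2 were higher in alpha and 3 higher in beta. Leaving out 1 library left 1 to 4 delta markers higher in alpha and 0 to 3 duct markers, with 1 and 0 without alpha replicate 3 and 1 of each without beta replicate 3. Without alpha replicate 2 or beta replicate 1 the duct number was also 1, and quantile normalization placed 4 duct markers higher in alpha and 1 higher in beta. Their part in the results below was not tested.

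Of the genes tested, 51.5% differed between the cell types. limma on log2(RPKM + 0.5), with sex as a term and Benjamini-Hochberg adjustment over all 12751 genes, called 6571 genes at an adjusted p under 0.05. Of these, 2705 (21.2% of those tested) were higher in alpha cells and 3866 (30.3%) were higher in beta cells. Each log2 difference below is that of RPKM + 0.5, alpha minus beta, with its standard error (SE), and "called" means past that threshold. A difference of at least 1 log2 unit was called for 1077 genes in favour of alpha and 1104 in favour of beta, and one of at least 3 units for 110 and 132. The split between the directions depended on scaling and on level. Genes higher in alpha made up 41.2% of calls as deposited, 53.8% after median-ratio scaling and 51.1% after quantile normalization. Among the 4745 genes averaging at least 10 RPKM, 2907 were called and 23.8% of these calls were higher in alpha. The median log2 difference of those 4745 genes was -0.24, so lists of abundant genes lean to beta like their background. Median-ratio scaling moved the median log2 difference of all genes from -0.053 to 0.056. The number of calls also depended on which library was left out, at 2701 without alpha replicate 3 and 3338 without beta replicate 3. Without alpha replicate 3 the alpha libraries left were all male, and the sex term set them against beta replicate 3 alone. Without beta replicate 3 the beta libraries left were all female and were set against alpha replicate 3 alone. Calls lost under these settings, here and below, thus came from a comparison with a single library. For all genes named as called in what follows, the 3 alpha values and the 3 beta values did not overlap, as for 6234 of the 6571 called. Where a call was lost in a repeat of the test under another setting, the adjusted p of each such setting follows the first. In every list below, a member under 1 RPKM in all libraries of one group could pass the filter only through the other group. Its direction was thus fixed beforehand.

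**Figure D1:**
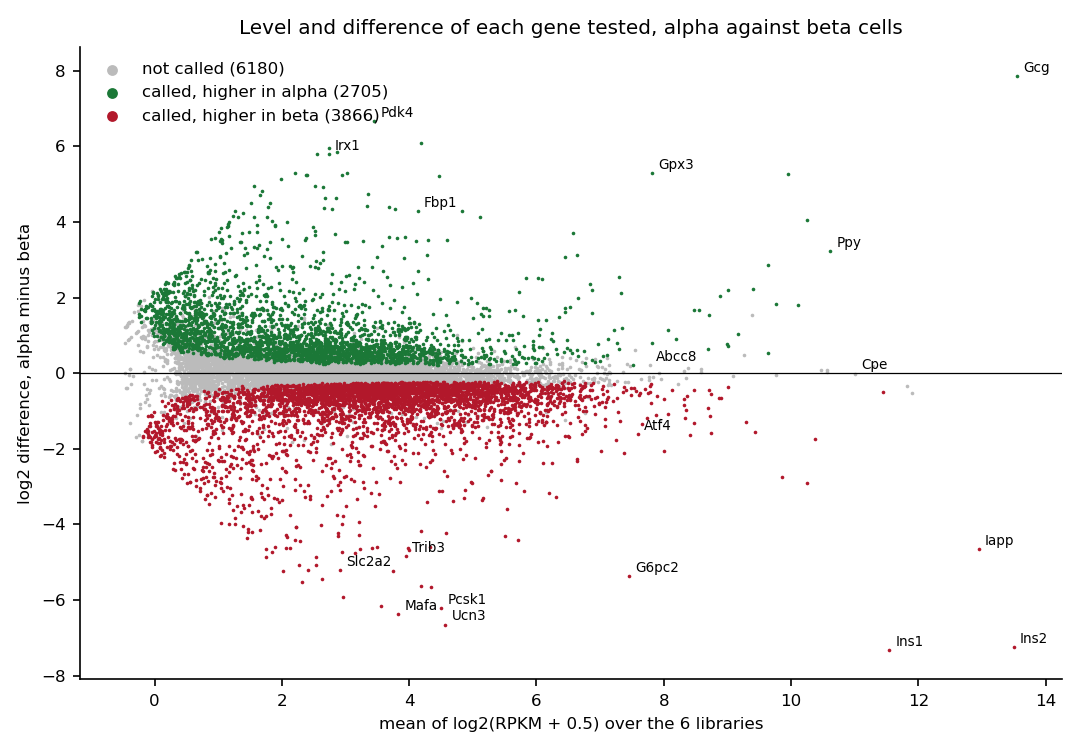
Each point is 1 of the 12751 genes tested, placed by the mean of log2(RPKM + 0.5) over the 6 libraries (horizontal axis) and the log2 difference between alpha and beta cells (vertical axis). Green points are the 2705 genes called higher in alpha, red points the 3866 called higher in beta and grey points those not called. Gcg at the top and the insulin genes Ins1 and Ins2 at the bottom lie farthest from 0.

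Hormone genes held the largest differences in both directions. Of 17 peptide hormone genes tested, 8 were higher in alpha and 7 higher in beta, or 88.2% called beside 51.5% over all genes. Without alpha replicate 3 or without beta replicate 3, 5 were higher in alpha. Gcg itself differed strongly (log2 difference 7.87, SE 0.52, adjusted p = 0.00016), as did Ins2 (log2 difference -7.25, SE 0.20, adjusted p = 1.4e-05). Ins1, the other mouse insulin gene, at chr19:52264297-52265476, plus strand, measured 250.4, 273 and 213 RPKM in alpha and 35076, 31724 and 43546 RPKM in beta (log2 difference -7.33, SE 0.14, adjusted p = 5.7e-06). As both insulin genes are near-identical in their coding part, reads may have been split between them. Iapp, which encodes the amylin peptide released with insulin, measured 1568, 1811 and 1445 RPKM in alpha and 37721, 37971 and 40955 RPKM in beta (log2 difference -4.66, SE 0.18, adjusted p = 2.5e-05). Its alpha mean was 4.14% of its beta mean, above the 0.667% of Ins1 and the 0.712% of Ins2. Ucn3, the urocortin that beta cells release onto neighbouring delta cells, measured 1.73, 2.07 and 1.97 RPKM in alpha and 206, 217 and 282 RPKM in beta (log2 difference -6.65, SE 0.13, adjusted p = 5.7e-06). Pdyn, the precursor of dynorphin, measured 3.81, 1.14 and 1.99 RPKM in alpha and 154, 109 and 124 RPKM in beta (log2 difference -5.63, SE 0.38, adjusted p = 0.00016). The beta libraries lay within a narrow range for Iapp, whereas Npy, the neuropeptide Y gene, was spread far more widely there, at 2.74, 1.45 and 1.13 RPKM in alpha and 87.2, 27.99 and 10.2 RPKM in beta (log2 difference -3.52, SE 0.73, adjusted p = 0.0097, or 0.091 without alpha replicate 3).

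Peptides of other endocrine cells were higher in alpha libraries. Pyy, the peptide YY gene, measured 6807, 3833 and 4547 RPKM in alpha and 245, 452 and 255 RPKM in beta (log2 difference 4.05, SE 0.34, adjusted p = 0.00035). Ppy, which encodes pancreatic polypeptide, measured 6215, 4126 and 4322 RPKM in alpha and 344, 822 and 472 RPKM in beta (log2 difference 3.22, SE 0.37, adjusted p = 0.0011). Alpha replicate 1 was the highest library for both, as it was for Sst, the somatostatin gene of delta cells. Sst measured 2845, 1000.2 and 1357 RPKM in alpha and 465, 849 and 289.5 RPKM in beta (log2 difference 1.83, SE 0.53, adjusted p = 0.030, or 0.27 without beta replicate 3, 0.081 with no filter on low values, 0.065 without beta replicate 1 and 0.058 without alpha replicate 3). These 3 genes are themselves markers of PP and delta cells and make up most of the summed levels given above. Edn3, an endothelin, measured 53.7, 49.1 and 50.2 RPKM in alpha and 0.235, 0.738 and 0.2204 RPKM in beta (log2 difference 5.95, SE 0.22, adjusted p = 2.5e-05). Nts, the precursor of neurotensin, measured 18.1, 63.8 and 28.9 RPKM in alpha and 0.182, 0.517 and 0.356 RPKM in beta (log2 difference 5.24, SE 0.48, adjusted p = 0.00047). Both were below 1 RPKM in every beta library, and beta replicate 2 was the highest of them.

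Enzymes that process prohormones differed member by member. Of 16 genes of the list, 4 were higher in alpha and 8 higher in beta, or 75% called beside 51.5% over all genes. These fell to 2 higher in alpha without beta replicate 3 and 5 higher in beta without alpha replicate 3. Pcsk1, the convertase that starts insulin processing, measured 1.86, 2.05 and 2.28 RPKM in alpha and 212, 221 and 171 RPKM in beta (log2 difference -6.21, SE 0.08, adjusted p = 3.4e-06). Pcsk2, which cuts proglucagon to glucagon and also acts on proinsulin, measured 741, 637 and 609.9 RPKM in alpha and 449, 374 and 352 RPKM in beta (log2 difference 0.77, SE 0.14, adjusted p = 0.0067, or 0.093 without beta replicate 3). The beta mean of Pcsk1 was 97.6 times its alpha mean, whereas the alpha mean of Pcsk2 was 1.69 times its beta mean. Pcsk1n, which encodes an inhibitor of the first convertase, measured 971, 766 and 558 RPKM in alpha and 224, 218 and 258 RPKM in beta (log2 difference 1.54, SE 0.14, adjusted p = 0.00052). Scg5, the chaperone of the second, measured 1006, 1031 and 934 RPKM in alpha and 580.5, 633 and 737 RPKM in beta (log2 difference 0.55, SE 0.10, adjusted p = 0.0071, or 0.75 with quantile normalization, 0.11 without alpha replicate 3, 0.093 with no filter on low values and 0.057 without beta replicate 3). Both were thus higher in alpha, as was Slc30a8, the zinc transporter of secretory granules, at 413, 368 and 415 RPKM in alpha and 159.6, 196 and 186 RPKM in beta (log2 difference 1.15, SE 0.12, adjusted p = 0.00073). Ero1lb, an oxidase that helps form the disulfide bonds of proinsulin, measured 21.3, 24.8 and 24.4 RPKM in alpha and 262, 221 and 199.9 RPKM in beta (log2 difference -3.18, SE 0.11, adjusted p = 2.1e-05). Cpe, the carboxypeptidase that trims the products of both convertases, measured 2210.2, 2053 and 1931 RPKM in alpha and 2206, 1871 and 2056 RPKM in beta (log2 difference -0.01, SE 0.14, adjusted p = 0.95). Its groups overlapped. The granin Chgb was higher in beta at 399, 397 and 408 RPKM in alpha and 1141, 1276 and 1159.8 RPKM in beta (log2 difference -1.55, SE 0.10, adjusted p = 0.00014). Chga, another granin, missed the threshold (log2 difference -0.53, SE 0.18, adjusted p = 0.050).

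**Figure D2:**
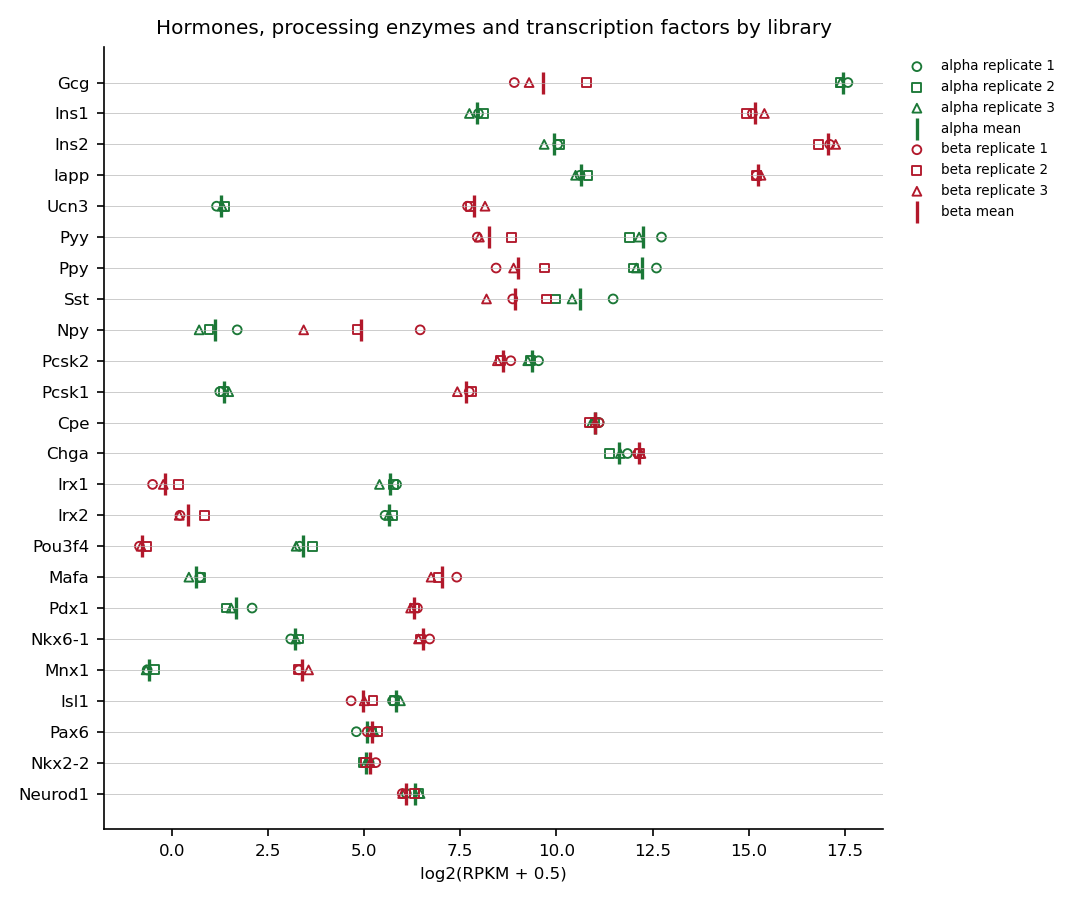
Levels of hormone genes, processing enzymes and transcription factors, as log2(RPKM + 0.5) on the horizontal axis, with 1 row per gene. Open symbols are the libraries (green alpha, red beta, shape by replicate) and vertical ticks the group means. The groups are apart for Gcg, Ins1, Ins2, Pcsk1, Irx1, Mafa and Pdx1 and overlap for Cpe, Pax6, Nkx2-2 and Neurod1.

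Transcription factors of each lineage were higher in the cells they are known from. Of 9 beta cell factors tested, 8 were higher in beta and 0 higher in alpha, and of 12 alpha cell factors 10 were higher in alpha and 0 higher in beta. The called shares were 88.9% and 83.3%, beside 51.5% over all genes. Their median log2 differences were -3.13 and 3.09, against -0.053 over all genes. The other members of the 14 listed for each lineage failed the filter. Mnx1, Irx1 and Pou3f4 were under 1 RPKM in every library of one group, so the filter fixed their direction. Mafa, an activator of the insulin genes, measured 1.15, 1.17 and 0.854 RPKM in alpha and 169, 121 and 106 RPKM in beta (log2 difference -6.37, SE 0.20, adjusted p = 1.8e-05). Pdx1, needed for the pancreas and for beta cell identity, measured 3.73, 2.14 and 2.3996 RPKM in alpha and 82.95, 78.2 and 73.3 RPKM in beta (log2 difference -4.63, SE 0.20, adjusted p = 3.4e-05). Nkx6-1, a homeodomain factor that maintains beta cells, measured 7.995, 9.23 and 8.82 RPKM in alpha and 104, 87.6 and 84.6 RPKM in beta (log2 difference -3.29, SE 0.11, adjusted p = 1.8e-05). The 3 factors differed in what was left in alpha cells, at 0.801% of the beta mean for Mafa, 3.53% for Pdx1 and 9.45% for Nkx6-1. Mnx1, a further homeodomain factor, measured 0.138, 0.232 and 0.126 RPKM in alpha and 9.34, 9.35 and 11.2 RPKM in beta (log2 difference -4.04, SE 0.13, adjusted p = 1.8e-05). Mlxipl, the glucose-responsive factor also called ChREBP, measured 2.097, 1.83 and 2.46 RPKM in alpha and 13.4, 26.6 and 26.7 RPKM in beta (log2 difference -3.09, SE 0.30, adjusted p = 0.00056), with beta replicate 1 the lowest of the beta libraries.

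Alpha cell factors gave the mirror picture. Irx1, an Iroquois factor on chromosome 13, measured 56.8, 53.4 and 41.6 RPKM in alpha and 0.203, 0.6301 and 0.353 RPKM in beta (log2 difference 5.79, SE 0.21, adjusted p = 2.4e-05). Irx2, on the same chromosome, measured 46.1, 52.5 and 49.2 RPKM in alpha and 0.653, 1.28 and 0.637 RPKM in beta (log2 difference 5.28, SE 0.19, adjusted p = 2.4e-05). In both genes beta replicate 2 was the highest beta library, as it was for 14 of the 15 genes with the largest difference in favour of alpha and at least 10 RPKM there. Pou3f4, also called Brn4, measured 9.47, 12.1 and 8.87 RPKM in alpha and 0.0549, 0.128 and 0.0715 RPKM in beta (log2 difference 4.14, SE 0.17, adjusted p = 2.9e-05). Etv1, an ETS factor, measured 34.3, 36.5 and 39.5 RPKM in alpha and 4.09, 3.32 and 2.76 RPKM in beta (log2 difference 3.36, SE 0.11, adjusted p = 1.8e-05). For Etv1 beta replicate 2 was not the highest beta library.

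Of 20 factors that both lineages need, 6 were higher in alpha, 3 higher in beta and 11 not called, a called share of 45.0% beside 51.5% over all genes. Quantile normalization called 10 higher in alpha and 4 higher in beta, as did averaging libraries that share a title number. Without alpha replicate 3, 2 were higher in alpha and 1 higher in beta, and without beta replicate 3, 1 was higher in beta. Pax6, required for both cell types, measured 27.2, 35.99 and 37.7 RPKM in alpha and 33.2, 40.2 and 35.5 RPKM in beta (log2 difference -0.07, SE 0.14, adjusted p = 0.71). Nkx2-2 measured 34.4, 30.7 and 32.4 RPKM in alpha and 38.9, 32.1 and 35.1 RPKM in beta (log2 difference -0.12, SE 0.10, adjusted p = 0.37). Neurod1, a basic helix-loop-helix factor, measured 67.8, 84.99 and 86.98 RPKM in alpha and 63.003, 78.2 and 63.4 RPKM in beta (log2 difference 0.28, SE 0.13, adjusted p = 0.12). The values of these 3 genes overlapped between the groups. Insm1, a zinc finger factor of endocrine cells, was higher in beta at 40.7, 51.2 and 44.8 RPKM in alpha and 115, 88.8 and 87.03 RPKM in beta (log2 difference -1.04, SE 0.15, adjusted p = 0.0024). Isl1, a LIM homeodomain factor, was higher in alpha at 52.7, 54.3 and 60.9 RPKM in alpha and 24.7, 36.9 and 31.4 RPKM in beta (log2 difference 0.88, SE 0.16, adjusted p = 0.0066, or 0.086 without alpha replicate 3).

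Genes of glucose handling were mostly higher in beta. Of 32 tested, 19 were higher in beta and 5 higher in alpha, or 75% called beside 51.5% over all genes. Without alpha replicate 3 and without beta replicate 3, 9 and 8 were higher in beta. Slc2a2, which encodes the glucose transporter GLUT2, measured 0.619, 0.751 and 0.801 RPKM in alpha and 45.03, 49.5 and 43.2 RPKM in beta (log2 difference -5.2, SE 0.09, adjusted p = 5.7e-06). Slc2a3, the GLUT3 gene, went the other way at 6.701, 8.86 and 8.802 RPKM in alpha and 0.0592, 0.116 and 0.0481 RPKM in beta (log2 difference 3.95, SE 0.16, adjusted p = 3.2e-05). Slc2a1, the GLUT1 gene, was present in both at 7.75, 21.4 and 9.61 RPKM in alpha and 28.6, 27.8 and 43.96 RPKM in beta (log2 difference -1.62, SE 0.36, adjusted p = 0.012, or 0.10 without beta replicate 3 and 0.084 without alpha replicate 3). Each cell type thus had its own transporter below 1 RPKM in the other. Hk1, a hexokinase with a high affinity for glucose, measured 6.42, 10.1 and 7.23 RPKM in alpha and 0.358, 0.427 and 0.409 RPKM in beta (log2 difference 3.18, SE 0.19, adjusted p = 0.00012). The alpha mean of Hk1 was 19.9 times its beta mean. G6pc2, the islet glucose-6-phosphatase, measured 29.3, 25.5 and 25.4 RPKM in alpha and 1245, 1174 and 1019 RPKM in beta (log2 difference -5.37, SE 0.11, adjusted p = 5.7e-06). The gluconeogenic enzyme gene Fbp1 measured 67.6, 78.2 and 83.8 RPKM in alpha and 3.27, 3.84 and 3.48 RPKM in beta (log2 difference 4.29, SE 0.11, adjusted p = 1.1e-05).

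At the entry of pyruvate into the mitochondrion, Pdk4 had the second largest difference in favour of alpha of all genes tested. It encodes a kinase that shuts off pyruvate dehydrogenase, and measured 127, 108 and 97.9 RPKM in alpha and 0.305, 1.08 and 0.477 RPKM in beta (log2 difference 6.68, SE 0.27, adjusted p = 3.2e-05). Pcx, the pyruvate carboxylase, measured 8.63, 8.23 and 8.45 RPKM in alpha and 45.2, 41.4 and 47.5 RPKM in beta (log2 difference -2.36, SE 0.08, adjusted p = 2.1e-05). Pck2, the mitochondrial PEP carboxykinase, measured 19.2, 17.2 and 17.6 RPKM in alpha and 100.3, 62.8 and 62.02 RPKM in beta (log2 difference -1.94, SE 0.20, adjusted p = 0.00072). The beta means of Pcx and Pck2 were 5.299 and 4.17 times their alpha means. Txnip, a glucose-induced binder of thioredoxin, was higher in alpha at 49.1, 55.4 and 44.3 RPKM in alpha and 19.8, 22.9 and 24.7 RPKM in beta (log2 difference 1.05, SE 0.09, adjusted p = 0.00046). The glycolytic enzyme gene Eno1 was higher in beta at 8.61, 13.8 and 8.61 RPKM in alpha and 24.9, 23.4 and 39.7 RPKM in beta (log2 difference -1.63, SE 0.19, adjusted p = 0.0012).

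Of 29 oxidative phosphorylation genes, 18 were higher in beta and 0 higher in alpha, or 62.1% called beside 51.5% over all genes. Their median log2 difference was -0.31, near the -0.24 over all genes averaging at least 10 RPKM. These differences were small and moved with the setting. After median-ratio scaling 11 were higher in beta and 1 higher in alpha, and after quantile normalization 5 and 2. There were 6 higher in beta without alpha replicate 3, 10 without beta replicate 3, and 11 without the library of each group that held the most acinar RNA. Cox6a2, an isoform of a cytochrome c oxidase subunit best known from muscle, stood out in size at 1.48, 0.986 and 1.15 RPKM in alpha and 66.05, 34.9 and 41.7 RPKM in beta (log2 difference -4.75, SE 0.27, adjusted p = 8.6e-05). Cox5a, another subunit, measured 21.9, 27.3 and 25.1 RPKM in alpha and 53.4, 55.8 and 57.8 RPKM in beta (log2 difference -1.17, SE 0.11, adjusted p = 0.00048). Cyc1, the cytochrome c1 gene, measured 51.1, 46.7 and 42.95 RPKM in alpha and 104, 85.3 and 91.99 RPKM in beta (log2 difference -1.02, SE 0.11, adjusted p = 0.00094). These 3 genes were called under all 17 alternatives fixed for the test in which they could be tested.

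Among ion channels, for both genes of the ATP-sensitive potassium channel no difference was called. Kcnj11, its pore, measured 73.5, 66.5 and 59.6 RPKM in alpha and 73.7, 64.9 and 64.03 RPKM in beta (log2 difference -0.04, SE 0.11, adjusted p = 0.76), although quantile normalization placed it higher in alpha at 0.33 (adjusted p = 0.043). Abcc8, its sulfonylurea receptor, measured 214, 224 and 259.96 RPKM in alpha and 205, 223 and 195 RPKM in beta (log2 difference 0.22, SE 0.08, adjusted p = 0.070). Among 19 potassium channel genes tested, 4 were higher in alpha and 6 higher in beta, a called share of 52.6% beside 51.5% over all genes, and 7 were higher in alpha after quantile normalization. Kcnk3, the background channel TASK-1, measured 32.9, 29.1 and 31.1 RPKM in alpha and 0.337, 0.881 and 0.456 RPKM in beta (log2 difference 4.96, SE 0.21, adjusted p = 3.2e-05). Kcnj3, a subunit of channels opened by G proteins, measured 6.43, 5.68 and 6.35 RPKM in alpha and 0.0411, 0.116 and 0.0401 RPKM in beta (log2 difference 3.58, SE 0.15, adjusted p = 3.4e-05). Kcnip1, an auxiliary subunit of voltage-gated channels, measured 0.974, 0.468 and 0.584 RPKM in alpha and 20.1, 15.99 and 19.1 RPKM in beta (log2 difference -4.06, SE 0.19, adjusted p = 5.6e-05). Each of the latter 3 was below 1 RPKM in every library of the lower group.

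Of 19 calcium, sodium and related channel genes, 57.9% were called, beside 51.5% over all genes, with 7 higher in alpha and 4 in beta. Without alpha replicate 3 these were 3 and 2, without beta replicate 3 a single gene was higher in beta, and median-ratio scaling gave 11 higher in alpha. Cacna1d, an L-type calcium channel pore, measured 13.7, 18.01 and 20.02 RPKM in alpha and 19.95, 24.02 and 17.98 RPKM in beta (log2 difference -0.16, SE 0.13, adjusted p = 0.36). Cacna1g, a T-type pore, measured 1.87, 2.07 and 1.65 RPKM in alpha and 0.106, 0.2996 and 0.172 RPKM in beta (log2 difference 1.75, SE 0.21, adjusted p = 0.0013). The former was the more abundant and overlapped between groups, and the latter was low in both. Scn3b, a sodium channel subunit, was higher in alpha at 2.85, 3.21 and 3.697 RPKM in alpha and 0.377, 0.531 and 0.3898 RPKM in beta (log2 difference 2.06, SE 0.16, adjusted p = 0.00027). Trpm5, a calcium-activated cation channel, measured 0.0605, 0.0466 and 0.0665 RPKM in alpha and 9.7005, 7.41 and 8.45 RPKM in beta (log2 difference -4.0, SE 0.16, adjusted p = 2.7e-05).

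Receptor genes were called in both directions. Of 26 G protein-coupled receptor genes tested, 10 were higher in alpha, 14 higher in beta and 2 not called. That is 92.3% called, beside 51.5% over all genes. The other members of the 42 listed failed the filter. Gcgr, Adra2a, Chrm3, Avpr1b, Sstr2 and Adrb1 were each under 1 RPKM in every library of one group. They could pass the filter only through the other group, which fixed their direction. Glp1r, the receptor of the incretin GLP-1, measured 1.83, 2.47 and 2.59 RPKM in alpha and 143, 163 and 136 RPKM in beta (log2 difference -5.66, SE 0.12, adjusted p = 5.7e-06). Gcgr, the glucagon receptor, measured 0.177, 0.0852 and 0.271 RPKM in alpha and 9.06, 10.5 and 13.7 RPKM in beta (log2 difference -4.12, SE 0.20, adjusted p = 6.1e-05). Gipr, the receptor of the incretin GIP, was not called at 11.5, 15.9 and 17.6 RPKM in alpha and 12.6, 22.3 and 20.9 RPKM in beta (log2 difference -0.27, SE 0.27, adjusted p = 0.43). The receptors of both incretins thus differed in pattern, Glp1r being low in alpha libraries and Gipr overlapping between groups. Adra2a, through which adrenaline inhibits insulin release, measured 0.652, 0.705 and 0.411 RPKM in alpha and 39.6, 25.9 and 27.3 RPKM in beta (log2 difference -4.86, SE 0.21, adjusted p = 3.8e-05). Chrm3, a muscarinic receptor, measured 0.636, 0.826 and 0.771 RPKM in alpha and 12.2, 13.7 and 11.8 RPKM in beta (log2 difference -3.36, SE 0.12, adjusted p = 2.2e-05). Ffar1, a receptor of long-chain fatty acids, measured 7.68, 8.72 and 9.43 RPKM in alpha and 45.9, 45.7 and 44.7 RPKM in beta (log2 difference -2.3, SE 0.09, adjusted p = 2.5e-05). Of these 3, Ffar1 kept the highest level in alpha. Prlr, the prolactin receptor, which belongs to another receptor class, measured 0.242, 0.379 and 0.273 RPKM in alpha and 38.2, 29.2 and 20.8 RPKM in beta (log2 difference -5.09, SE 0.21, adjusted p = 3.1e-05).

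On the alpha side Avpr1b, a vasopressin receptor, measured 39.1, 39.5 and 47.4 RPKM in alpha and 0.147, 0.639 and 0.225 RPKM in beta (log2 difference 5.79, SE 0.22, adjusted p = 2.5e-05). Oxtr, the oxytocin receptor, measured 46.02, 56.4 and 39.9 RPKM in alpha and 1.87, 1.68 and 1.48 RPKM in beta (log2 difference 4.42, SE 0.15, adjusted p = 2.1e-05). Receptors of both neurohypophyseal hormones were thus higher in alpha. Sstr2, through which somatostatin inhibits glucagon release, measured 13.9, 16.9 and 16.3 RPKM in alpha and 0.07503, 0.153 and 0.1302 RPKM in beta (log2 difference 4.71, SE 0.14, adjusted p = 1.4e-05). Sstr3, another somatostatin receptor, measured 23.4, 23.5 and 21.4 RPKM in alpha and 38.2, 39.8 and 41.2 RPKM in beta (log2 difference -0.83, SE 0.07, adjusted p = 0.00036). Sstr2 was below 1 RPKM in every beta library, and Sstr3 was present in both groups and higher in beta. Gpr119, a lipid receptor, measured 36.4, 31.02 and 31.5 RPKM in alpha and 2.57, 3.77 and 3.75 RPKM in beta (log2 difference 3.07, SE 0.15, adjusted p = 6.0e-05). Ffar4, a further fatty acid receptor, measured 23.8, 24.3 and 20.6 RPKM in alpha and 2.42, 4.56 and 4.26 RPKM in beta (log2 difference 2.41, SE 0.21, adjusted p = 0.00042). Adrb1, the beta-1 adrenergic receptor, measured 4.85, 4.43 and 3.79 RPKM in alpha and 0, 0.0188 and 0 RPKM in beta (log2 difference 3.22, SE 0.17, adjusted p = 7.3e-05). No read of Adrb1 was listed in 2 of the beta libraries. Casr, the calcium-sensing receptor, was not called at 17.97, 15.6 and 16.4 RPKM in alpha and 14.9, 16.01 and 15.1 RPKM in beta (log2 difference 0.11, SE 0.09, adjusted p = 0.32).

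**Figure D3:**
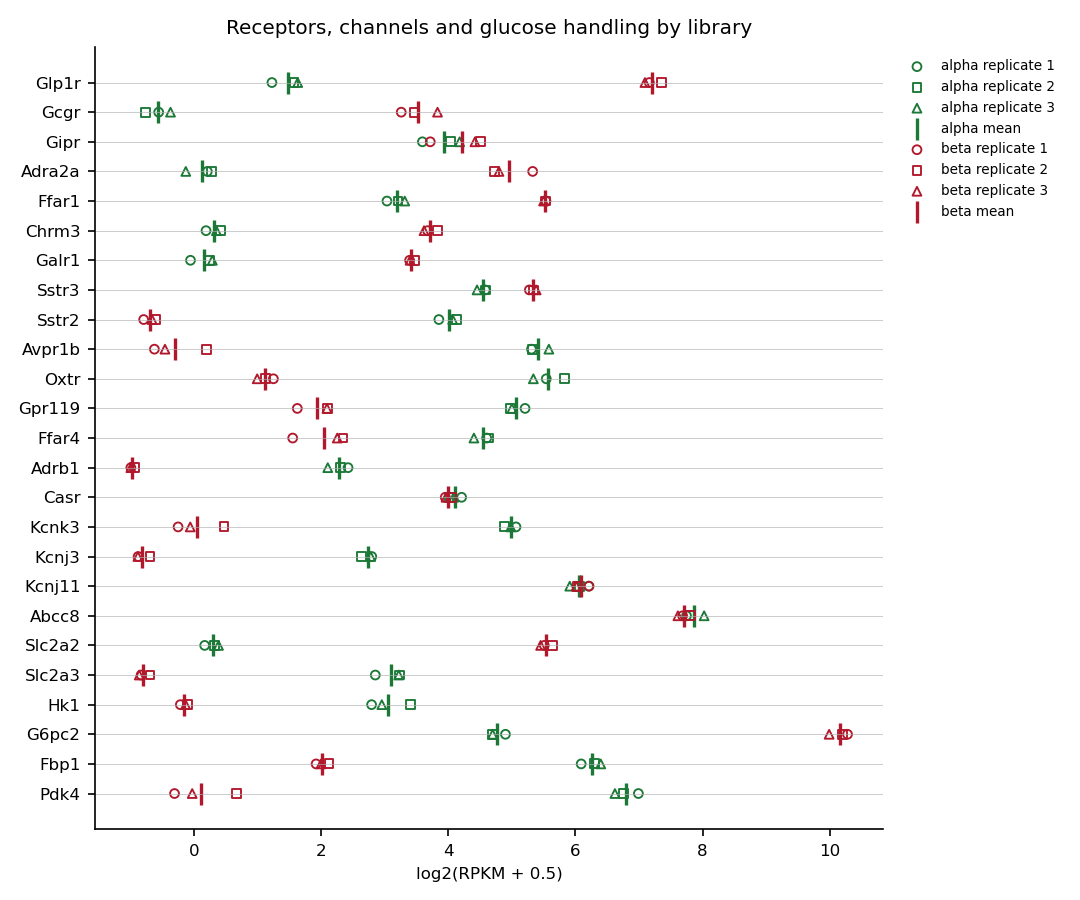
Levels of receptors, channels and genes of glucose handling, as log2(RPKM + 0.5) on the horizontal axis, with 1 row per gene. Open symbols are the libraries (green alpha, red beta, shape by replicate) and vertical ticks the group means. Glp1r, Gcgr, Adra2a, Slc2a2 and G6pc2 lie to the right in beta, Avpr1b, Sstr2, Kcnk3, Slc2a3 and Pdk4 to the right in alpha, and Gipr, Casr, Kcnj11 and Abcc8 overlap.

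Downstream of the receptors, 8 of 27 genes of cyclic AMP signalling were higher in alpha and 10 higher in beta. The called share was 66.7%, beside 51.5% over all genes. Without beta replicate 3, 5 were higher in alpha, and without alpha replicate 3, 6 were higher in beta. Genes of inhibitory G protein subunits went in opposite directions. Gnai1 measured 37.6, 45.5 and 48.5 RPKM in alpha and 2.87, 6.33 and 5.69 RPKM in beta (log2 difference 3.05, SE 0.30, adjusted p = 0.00059). Gnai2 measured 86.8, 86.2 and 77.9 RPKM in alpha and 283, 241 and 306 RPKM in beta (log2 difference -1.78, SE 0.09, adjusted p = 7.0e-05). Adcy5, an adenylate cyclase, was higher in alpha at 1.62, 1.91 and 1.55 RPKM in alpha and 0.0535, 0.127 and 0.0796 RPKM in beta (log2 difference 1.88, SE 0.21, adjusted p = 0.00091). The phosphodiesterases, which break cyclic AMP down, were divided as well. Pde4d was higher in alpha at 2.73, 3.18 and 3.38 RPKM in alpha and 0.723, 0.891 and 0.668 RPKM in beta (log2 difference 1.57, SE 0.15, adjusted p = 0.00051). Pde4b was higher in beta at 1.71, 2.2005 and 2.03 RPKM in alpha and 7.06, 8.11 and 6.95 RPKM in beta (log2 difference -1.64, SE 0.13, adjusted p = 0.00027). Prkar2b, a regulatory subunit of protein kinase A, measured 4.13, 4.81 and 5.65 RPKM in alpha and 18.4, 23.9 and 19.7 RPKM in beta (log2 difference -1.92, SE 0.13, adjusted p = 0.00020). Gnas, the stimulatory subunit, sits in a locus of overlapping transcripts that the counting could split, so its level of 46.1, 48.9 and 46.3 RPKM in alpha and 3.44, 4.26 and 3.19 RPKM in beta is uncertain.

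In the release machinery 8 of 31 genes were higher in alpha and 15 higher in beta, or 74.2% called beside 51.5% over all genes. Without alpha replicate 3 these were 4 and 8, and 4 were higher in alpha without beta replicate 3. Sytl4, or granuphilin, which docks insulin granules, measured 0.589, 0.901 and 1.12 RPKM in alpha and 108, 106 and 93.5 RPKM in beta (log2 difference -6.15, SE 0.12, adjusted p = 5.7e-06). Its relative Sytl5 measured 42.1, 47.5 and 57.2 RPKM in alpha and 15.5, 18.3 and 10.6 RPKM in beta (log2 difference 1.88, SE 0.12, adjusted p = 0.00012). The Rab3 GTPases of granules were also split between the cell types. Rab3c measured 9.48, 9.38 and 9.41 RPKM in alpha and 0.315, 0.869 and 0.353 RPKM in beta (log2 difference 3.39, SE 0.22, adjusted p = 0.00016). Rab3d measured 14.04, 14.4 and 13.998 RPKM in alpha and 45.8, 37.9 and 44.01 RPKM in beta (log2 difference -1.57, SE 0.10, adjusted p = 0.00012). Stx1a, a syntaxin of the plasma membrane, was higher in alpha at 10.7, 12.04 and 13.3 RPKM in alpha and 4.95, 4.89 and 4.55 RPKM in beta (log2 difference 1.29, SE 0.09, adjusted p = 0.00020). Its SNARE partner Snap25 overlapped between groups. Snap25 measured 25.9, 30.3 and 33.8 RPKM in alpha and 32.7, 36.3 and 26.2 RPKM in beta (log2 difference 0.04, SE 0.10, adjusted p = 0.77). Pclo, a scaffold of release sites, was higher in beta at 3.403, 3.68 and 4.01 RPKM in alpha and 17.8, 21.1 and 13.2 RPKM in beta (log2 difference -1.95, SE 0.13, adjusted p = 0.00015).

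Amino acid transporters were divided between the cell types, with 6 of 18 tested higher in alpha and 9 higher in beta. Of the 18, 83.3% were called, beside 51.5% over all genes. Slc38a5, a glutamine carrier that alpha cells are known to induce when glucagon action is blocked, measured 36.4, 23.3 and 36.97 RPKM in alpha and 0.646, 1.42 and 0.311 RPKM in beta (log2 difference 4.93, SE 0.28, adjusted p = 9.0e-05). Slc7a2, which carries arginine and other cationic amino acids, measured 115, 143 and 146 RPKM in alpha and 21.3, 27.5 and 23.1 RPKM in beta (log2 difference 2.51, SE 0.14, adjusted p = 8.2e-05). Slc7a8, a carrier of large neutral amino acids, measured 189, 168 and 154 RPKM in alpha and 53.2, 47.3 and 48.1 RPKM in beta (log2 difference 1.74, SE 0.11, adjusted p = 0.00012). The alpha mean was 40.7 times the beta mean for Slc38a5 but 5.63 and 3.44 times for the other two. Slc7a5, another carrier of large neutral amino acids, measured 18.9, 23.9 and 19.6 RPKM in alpha and 119, 87.1 and 94.99 RPKM in beta (log2 difference -2.24, SE 0.16, adjusted p = 0.00021). Slc1a4, a carrier of small neutral amino acids, was higher in beta at 3.195, 4.46 and 3.88 RPKM in alpha and 22.2, 14.3 and 13.7 RPKM in beta (log2 difference -1.9, SE 0.21, adjusted p = 0.00098). Slc7a1, a carrier of cationic amino acids, was higher in beta at 4.44, 5.38 and 5.1004 RPKM in alpha and 20.6, 14.7 and 11.4 RPKM in beta (log2 difference -1.41, SE 0.19, adjusted p = 0.0019). Slc7a5, Slc1a4 and Slc7a1 are known targets of the stress factor ATF4.

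All 23 genes of the integrated stress response list were higher in beta, as were 30.3% of all genes tested. In this response, kinases that sense misfolded protein or a lack of amino acids slow translation, which lets ATF4 be made and turn on genes for amino acid supply, tRNA charging and protein folding. The median log2 difference of the list was -2.17, against -0.053 over all genes. Both median-ratio scaling and quantile normalization called 22 of 23 higher in beta, and leaving out any 1 library called 20 to 23. Without the 2 libraries that held the most acinar RNA, 23 were higher in beta. The libraries of the groups did not overlap for any of the 23. The same held for 6234 of all 6571 genes called and for 7828 of the 12751 tested. Among the beta libraries, replicate 1 was the highest for 20 of the 23. Atf4 itself measured 125, 101 and 103 RPKM in alpha and 407, 301 and 312 RPKM in beta (log2 difference -1.61, SE 0.16, adjusted p = 0.00067). The list was written with earlier results of these data known.

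Among the regulators and effectors of the response, Trib3, a pseudokinase that dampens it, measured 2.62, 3.08 and 1.803 RPKM in alpha and 109.7, 61.7 and 74.95 RPKM in beta (log2 difference -4.83, SE 0.26, adjusted p = 7.8e-05). Atf5, a relative of ATF4, measured 14.6, 11.4 and 8.33 RPKM in alpha and 283, 197 and 226 RPKM in beta (log2 difference -4.41, SE 0.22, adjusted p = 5.9e-05). Ddit3, which encodes the factor CHOP, measured 15.96, 18.96 and 13.4 RPKM in alpha and 108, 72.2 and 102 RPKM in beta (log2 difference -2.59, SE 0.17, adjusted p = 0.00016). Beta replicate 1 was the highest library for each of these. Chac1, an enzyme that degrades glutathione, measured 5.06, 3.82 and 2.82 RPKM in alpha and 114, 63.6 and 61.2 RPKM in beta (log2 difference -4.17, SE 0.32, adjusted p = 0.00026). Nupr1, a stress-induced nuclear protein, measured 2.31, 43.4 and 16.9 RPKM in alpha and 158, 161 and 176 RPKM in beta (log2 difference -3.6, SE 1.0, adjusted p = 0.026, or 0.17 without beta replicate 3, 0.12 without alpha replicate 3 and 0.065 with no filter on low values). In alpha libraries Nupr1 followed the order of the acinar sums, lowest in replicate 1 and highest in replicate 2. In beta libraries it did not, as Nupr1 was highest in replicate 3 and the acinar sum in replicate 2. A link between them was not tested. Ppp1r15a, a phosphatase subunit that ends the response, passed the threshold narrowly at 31.2, 19.8 and 27.8 RPKM in alpha and 103, 43.2 and 46.6 RPKM in beta (log2 difference -1.07, SE 0.36, adjusted p = 0.049, or 0.28 without alpha replicate 3, 0.15 without beta replicate 3, 0.14 with quantile normalization, 0.12 without alpha replicate 2, 0.11 with no filter on low values, 0.080 with median-ratio scaling and 0.050 with pseudocount 0.1). Vldlr, a lipoprotein receptor, measured 3.59, 8.62 and 5.72 RPKM in alpha and 27.2, 28.2 and 22.8 RPKM in beta (log2 difference -2.05, SE 0.30, adjusted p = 0.0027).

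Enzymes of serine and asparagine synthesis, on the same list, were higher in beta too. Phgdh, the first step of serine synthesis, measured 0.405, 0.389 and 0.285 RPKM in alpha and 17.5, 10.2 and 9.902 RPKM in beta (log2 difference -3.84, SE 0.25, adjusted p = 0.00014). Psat1, the next step, measured 5.697, 5.13 and 4.702 RPKM in alpha and 56.9, 28.8 and 23.5 RPKM in beta (log2 difference -2.5, SE 0.32, adjusted p = 0.0016). Asns, asparagine synthetase, measured 28.5, 29.2 and 29.2 RPKM in alpha and 197, 149 and 137 RPKM in beta (log2 difference -2.38, SE 0.14, adjusted p = 9.6e-05). Phgdh was below 1 RPKM in all alpha libraries, while Asns was clearly present in each. The folate enzyme gene Mthfd2 was higher in beta at 8.15, 6.92 and 6.57 RPKM in alpha and 86.7, 61.8 and 56.96 RPKM in beta (log2 difference -3.11, SE 0.18, adjusted p = 0.00011). Of the tRNA synthetases, Wars was higher in beta at 14.4, 16.1 and 15.4 RPKM in alpha and 109, 91.8 and 88.2 RPKM in beta (log2 difference -2.58, SE 0.10, adjusted p = 2.9e-05). Aars, the alanine enzyme, was higher in beta at 14.7, 13.7 and 12.4 RPKM in alpha and 72.5, 56.5 and 59.3 RPKM in beta (log2 difference -2.17, SE 0.13, adjusted p = 0.00011). Translation control was represented by Eif4ebp1, a repressor of cap-dependent translation, which measured 9.24, 15.4 and 9.62 RPKM in alpha and 112, 79.1 and 74.5 RPKM in beta (log2 difference -2.91, SE 0.26, adjusted p = 0.00044).

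**Figure D4:**
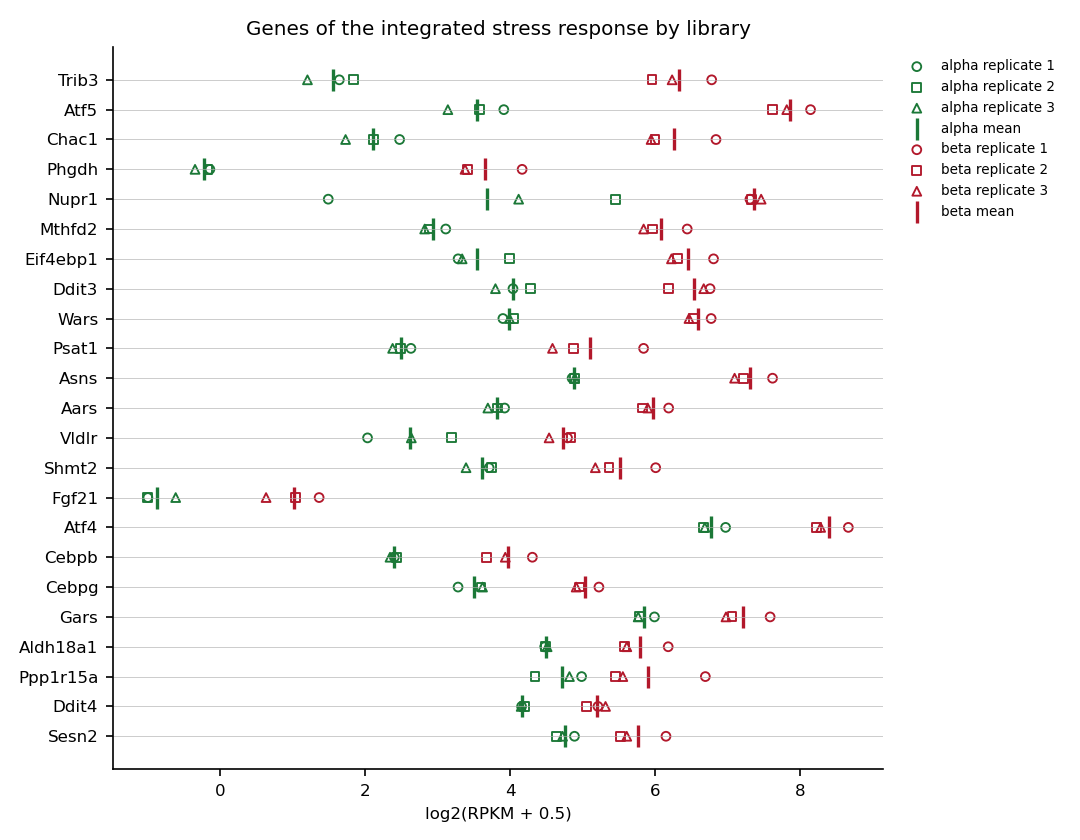
Levels of the 23 genes of the integrated stress response, as log2(RPKM + 0.5) on the horizontal axis, with 1 row per gene in the order of their difference. Open symbols are the libraries (green alpha, red beta, shape by replicate) and vertical ticks the group means. In each row the 3 beta libraries lie to the right of the 3 alpha libraries.

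Of 33 genes for folding and quality control in the endoplasmic reticulum, 29 were higher in beta and 0 higher in alpha, with a median log2 difference of -0.51. The called share of 87.9% stood beside 51.5% over all genes. After median-ratio scaling 25 were higher in beta and after quantile normalization 15, with 0 higher in alpha under either. Without alpha replicate 3 there were 16, and without beta replicate 3 there were 19. Wfs1, the wolframin gene, measured 9.96, 8.93 and 8.35 RPKM in alpha and 66.4, 53.2 and 52.3 RPKM in beta (log2 difference -2.58, SE 0.13, adjusted p = 6.5e-05). Edem1, which helps remove misfolded glycoproteins, measured 4.24, 6.41 and 5.76 RPKM in alpha and 28.3, 32.6 and 32.6 RPKM in beta (log2 difference -2.42, SE 0.17, adjusted p = 0.00019). Herpud1, of the same disposal route, measured 42.2, 34.6 and 34.2 RPKM in alpha and 142, 110.3 and 128 RPKM in beta (log2 difference -1.79, SE 0.13, adjusted p = 0.00025). These 3 differences were larger than those of the abundant chaperones named next. Hspa5, also called BiP, measured 242, 239.8 and 230.02 RPKM in alpha and 458, 429 and 408 RPKM in beta (log2 difference -0.85, SE 0.09, adjusted p = 0.00081). Creld2, a stress-induced folding factor, measured 30.1, 27.8 and 25.3 RPKM in alpha and 72.3, 59.5 and 68.1 RPKM in beta (log2 difference -1.29, SE 0.10, adjusted p = 0.00032). Hsp90b1, another abundant chaperone, measured 206, 229 and 221 RPKM in alpha and 239.7, 249.5 and 222 RPKM in beta and was not called (log2 difference -0.09, SE 0.09, adjusted p = 0.41). Atf6, a sensor of the unfolded protein response, was higher in beta at 10.8, 11.5 and 11.02 RPKM in alpha and 39.1, 30.1 and 26.98 RPKM in beta (log2 difference -1.42, SE 0.14, adjusted p = 0.00057).

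Promoters were searched for short sequences known from these responses, the ATF4 site TGATGCAA and the endoplasmic reticulum stress element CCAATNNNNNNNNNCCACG (N stands for any base). No gene of either stress list held both. Both strands were read in the 250 bases before the starts that RefSeq gives (build GRCm38.p6), for the 9090 genes tested with an entry. The ATF4 site was present for 5 of 21 genes of the integrated stress response (23.8%) and for 59 of all 9090 (0.649%). The stress element was present for 9 of 28 folding genes (32.1%), Hsp90b1 among them, and for 14 of all 9090 (0.154%). Among genes higher in alpha, 9 of 1822 held the ATF4 site (0.494%) and 0 the stress element. Among genes higher in beta, 28 of 2931 held the ATF4 site (0.955%) and 8 the stress element (0.273%). The numbers over all 9090 genes include the members of both lists. As the motifs were taken from what is known of these responses, a higher share in the lists was likely beforehand. The shares thus describe the lists and are no separate support for the differences. A match describes letters in the window and shows no binding. Windows of 60 bases on the gene's strand are given for 5 promoters, chosen after values were seen, to show what a site looks like in genes of large and of moderate difference. Capitals mark the motif, which reads in the reverse orientation in Chac1, Aars, Vldlr and Creld2.
Chac1 (chr2:119351023-119351082, plus strand), ATF4 site: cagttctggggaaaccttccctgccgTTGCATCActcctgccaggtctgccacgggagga
Aars (chr8:111033704-111033763, plus strand), ATF4 site: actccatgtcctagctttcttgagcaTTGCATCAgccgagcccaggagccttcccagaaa
Vldlr (chr19:27216794-27216853, plus strand), ATF4 site: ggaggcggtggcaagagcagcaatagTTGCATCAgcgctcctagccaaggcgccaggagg
Hspa5 (chr2:34772004-34772063, plus strand), stress element: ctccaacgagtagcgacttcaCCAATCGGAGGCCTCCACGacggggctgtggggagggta
Creld2 (chr15:88819499-88819558, plus strand), stress element: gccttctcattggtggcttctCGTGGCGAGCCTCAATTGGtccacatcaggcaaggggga

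Contact and guidance genes were called in both directions. Of 22 adhesion and junction genes, 11 were higher in beta and 4 higher in alpha, or 68.2% called beside 51.5% over all genes. Gjd2, whose product connexin 36 forms the gap junctions that couple beta cells, measured 10.6, 8.43 and 9.68 RPKM in alpha and 89.4, 79.8 and 86.4 RPKM in beta (log2 difference -3.09, SE 0.11, adjusted p = 2.3e-05). Ceacam1, a cell adhesion protein, measured 0.0934, 0.513 and 0.195 RPKM in alpha and 2.695, 6.99 and 4.46 RPKM in beta (log2 difference -2.75, SE 0.39, adjusted p = 0.0024). Ocln, a tight junction protein, was higher in beta at 1.302, 1.64 and 1.48 RPKM in alpha and 6.96, 7.98 and 7.98 RPKM in beta (log2 difference -2.06, SE 0.12, adjusted p = 0.00012). Nlgn2, a synaptic adhesion protein, was one of the exceptions, being higher in alpha at 39.4, 43.98 and 46.3 RPKM in alpha and 9.88, 11.8 and 11.2 RPKM in beta (log2 difference 1.95, SE 0.11, adjusted p = 8.1e-05). Of 19 axon guidance genes, 12 were higher in alpha and 2 higher in beta, or 73.7% called beside 51.5% over all genes. Their median log2 difference was 0.89, and 5 were higher in alpha without alpha replicate 3. Ntn4, a netrin, measured 9.397, 10.4 and 10.5 RPKM in alpha and 0.315, 0.912 and 0.615 RPKM in beta (log2 difference 3.29, SE 0.23, adjusted p = 0.00018). Sema3e, a semaphorin, measured 6.02, 9.23 and 7.52 RPKM in alpha and 0.531, 0.961 and 0.473 RPKM in beta (log2 difference 2.87, SE 0.23, adjusted p = 0.00030). The receptor gene Robo1 went the other way at 1.41, 1.79 and 1.54 RPKM in alpha and 9.57, 11.7 and 8.898 RPKM in beta (log2 difference -2.3, SE 0.14, adjusted p = 0.00012).

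AMPA receptor genes were higher in alpha and the GABA-making enzyme higher in beta. Of 13 genes of GABA and glutamate handling, 7 were higher in alpha and 5 in beta, or 92.3% called beside 51.5% over all genes. The other members of the 24 listed failed the filter. It also fixed the direction of Gria2, Grin1 and Gad1, each under 1 RPKM in every library of one group. Gria2, an AMPA receptor subunit, measured 11.03, 14.2 and 16.1 RPKM in alpha and 0.352, 0.595 and 0.4799 RPKM in beta (log2 difference 3.92, SE 0.18, adjusted p = 4.5e-05). Gria3, another, measured 12.6, 19.1 and 22.3 RPKM in alpha and 1.04, 3.31 and 1.24 RPKM in beta (log2 difference 3.22, SE 0.36, adjusted p = 0.0010). Grin1, the shared NMDA receptor subunit, was higher in beta at 0.224, 0.307 and 0.197 RPKM in alpha and 6.63, 4.94 and 4.31 RPKM in beta (log2 difference -2.91, SE 0.20, adjusted p = 0.00017). Enzymes that use glutamate were higher in beta. Glul, which turns it to glutamine, measured 61.8, 70.2 and 69.8 RPKM in alpha and 144, 199 and 202 RPKM in beta (log2 difference -1.44, SE 0.16, adjusted p = 0.00091). Gad1, which makes GABA from it, measured 0.233, 0.341 and 0.214 RPKM in alpha and 12.5, 11.7 and 13.3 RPKM in beta (log2 difference -4.14, SE 0.12, adjusted p = 1.4e-05). Abat, which breaks GABA down, was higher in beta like Gad1, at 5.85, 4.63 and 6.35 RPKM in alpha and 18.9, 17.8 and 17.3 RPKM in beta (log2 difference -1.55, SE 0.11, adjusted p = 0.00023).

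Of 25 genes of lipid and cholesterol metabolism tested, 6 were higher in alpha, 5 higher in beta and 14 not called, a called share of 44.0% beside 51.5% over all genes. Without alpha replicate 3 these were 3 and 3, without beta replicate 3 they were 2 and 3, and without beta replicate 1 there were 3 higher in alpha. Hadh, an enzyme of fatty acid oxidation that restrains insulin release, measured 4.62, 3.62 and 3.06 RPKM in alpha and 99.1, 87.1 and 101 RPKM in beta (log2 difference -4.59, SE 0.12, adjusted p = 1.3e-05). Acly, which makes cytosolic acetyl-CoA from citrate, measured 218, 251 and 264 RPKM in alpha and 751, 784 and 719.9 RPKM in beta (log2 difference -1.58, SE 0.10, adjusted p = 0.00013). Sqle, a step of cholesterol synthesis, was higher in beta at 24.3, 20.9 and 22.3 RPKM in alpha and 88.9, 75.8 and 65.9 RPKM in beta (log2 difference -1.69, SE 0.12, adjusted p = 0.00021). Lpl, lipoprotein lipase, was higher in alpha at 99.7, 108 and 108 RPKM in alpha and 68.1, 55.3 and 41.9 RPKM in beta (log2 difference 1.06, SE 0.14, adjusted p = 0.0020).

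Among 17 genes known to be kept low in beta cells, 7 could be tested, with 4 higher in alpha and 1 higher in beta. That is 71.4% called, beside 51.5% over all genes. A member under 1 RPKM in every beta library, such as Igfbp4, could pass the filter only through alpha libraries, which fixed its direction. The members not tested were under 1 RPKM in at least 5 of the 6 libraries, and thus low in alpha too. Oat, ornithine aminotransferase, measured 22.9, 28.3 and 33.2 RPKM in alpha and 0.597, 1.17 and 1.003 RPKM in beta (log2 difference 4.37, SE 0.22, adjusted p = 6.0e-05). Igfbp4, a binder of insulin-like growth factors, measured 3.95, 4.77 and 7.57 RPKM in alpha and 0.1699, 0.296 and 0.221 RPKM in beta (log2 difference 3.11, SE 0.22, adjusted p = 0.00019). Cat, the catalase gene, was the one on the beta side at 0.474, 1.08 and 0.787 RPKM in alpha and 3.897, 5.03 and 4.24 RPKM in beta (log2 difference -1.94, SE 0.23, adjusted p = 0.0012). Ldha, lactate dehydrogenase, was not called at 12.4, 37.5 and 19.1 RPKM in alpha and 17.1, 16.2 and 24.02 RPKM in beta (log2 difference 0.02, SE 0.40, adjusted p = 0.97). Alpha replicate 1 was the lowest and alpha replicate 2 the highest of the 6 libraries for Ldha.

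Of 15 cell cycle genes tested, 10 were higher in beta and 1 higher in alpha, or 73.3% called beside 51.5% over all genes. The other members of the 27 listed failed the filter and were thus low in both groups. Mki67, Top2a, Ccnb1, Cdk1 and Foxm1 were among them, so the counts do not speak to cell division. Quantile normalization gave 7 higher in beta and 2 higher in alpha. There were 3 higher in beta without alpha replicate 3, 6 without beta replicate 3, and 6 without the library of each group that held the most acinar RNA. Ccnd1, a cyclin, measured 24.997, 28.96 and 23.6 RPKM in alpha and 39.9, 41.2 and 44.1 RPKM in beta (log2 difference -0.74, SE 0.09, adjusted p = 0.0012). Of 22 immediate early genes, which dissociation can induce, 9 were higher in alpha and 4 in beta, or 59.1% called (51.5% over all genes). Without alpha replicate 3 there were 2 and 2, and without beta replicate 3 there were 5 higher in alpha. Jun measured 113, 87.04 and 87.6 RPKM in alpha and 27.7, 32.6 and 34.5 RPKM in beta (log2 difference 1.52, SE 0.13, adjusted p = 0.00036). Klf4, a zinc finger factor, measured 14.1, 18.7 and 14.9 RPKM in alpha and 2.23, 3.89 and 2.86 RPKM in beta (log2 difference 2.24, SE 0.21, adjusted p = 0.00055). Fos was not called at 101, 52.8 and 102 RPKM in alpha and 86.02, 45.3 and 47.9 RPKM in beta (log2 difference 0.65, SE 0.33, adjusted p = 0.14). Of 30 cytosolic ribosomal protein genes, 30% were called, beside 51.5% over all genes. There were 5 higher in alpha, 4 higher in beta and 21 not called. This split turned to 8 and 2 after median-ratio scaling and to 12 and 1 after quantile normalization, and was 2 and 0 without alpha replicate 3. Many copies of these genes in the genome make single levels uncertain.

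**Figure D5:**
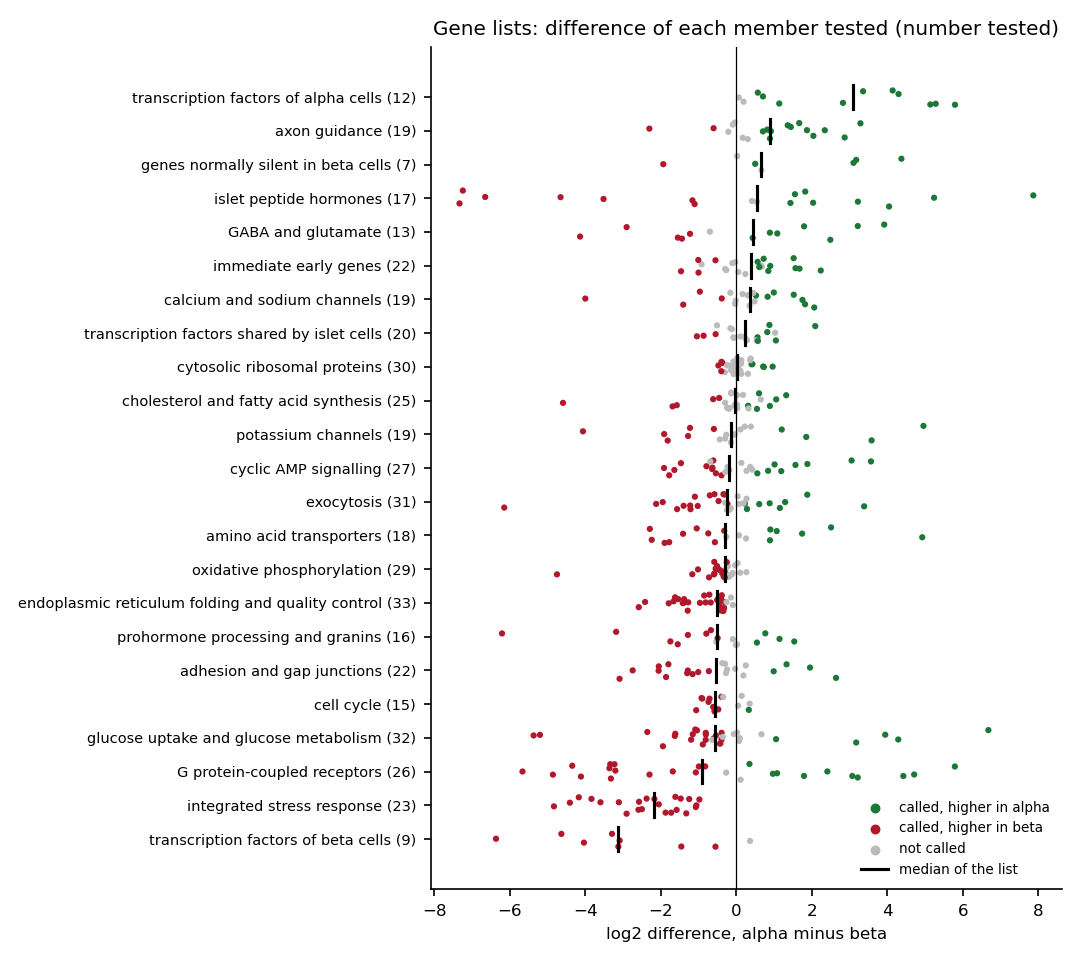
Log2 difference between alpha and beta cells (horizontal axis) for each tested member of 23 gene lists, with the number tested after the list's name. Green points were called higher in alpha, red points higher in beta and grey points not called, and the black tick is the list's median. Medians run from 3.09 for alpha cell transcription factors to -3.13 for beta cell factors, with -2.17 for the integrated stress response.

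A small set of genes was high in one cell type and nearly silent in the other. At least 10 RPKM in all 3 libraries of one type and under 1 RPKM in all 3 of the other was met by 21 genes for alpha and 28 for beta. The most abundant of them on the alpha side were Edn3, Irx1, Avpr1b, Nts, Klhl13, Kcnk3 and Vwde. Klhl13, which encodes an adaptor of a ubiquitin ligase, measured 36.2, 28.2 and 28.9 RPKM in alpha and 0.265, 0.648 and 0.213 RPKM in beta (log2 difference 5.24, SE 0.22, adjusted p = 3.3e-05). Vwde measured 27.7, 25.7 and 30.5 RPKM in alpha and 0.132, 0.398 and 0.2297 RPKM in beta (log2 difference 5.29, SE 0.16, adjusted p = 1.7e-05). On the beta side Prss53, a serine protease, led the set by level. Prss53 measured 0.689, 0.384 and 0.465 RPKM in alpha and 74.04, 51.8 and 56.7 RPKM in beta (log2 difference -5.91, SE 0.19, adjusted p = 1.8e-05). Tmem215 measured 0.3103, 0.471 and 0.494 RPKM in alpha and 46.7, 40.7 and 37.2 RPKM in beta (log2 difference -5.44, SE 0.12, adjusted p = 5.7e-06). Rasgrf1, an exchange factor for Ras, measured 0.518, 0.451 and 0.5001 RPKM in alpha and 32.7, 33.4 and 33.3 RPKM in beta (log2 difference -5.09, SE 0.09, adjusted p = 5.7e-06). Slc2a2, Adra2a, Prlr, Gad1, Chrm3 and Kcnip1, described above, were also among the 28. So was Ctss, a protease of immune cells, at 0.05702, 0.165 and 0.104 RPKM in alpha and 12.5, 11.3 and 11.9 RPKM in beta (log2 difference -4.35, SE 0.13, adjusted p = 1.7e-05), which belongs to the 12 immune markers higher in beta.

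Further genes among the largest differences had other roles. Eef1a2, a translation elongation factor of muscle and neurons, measured 169.7, 131 and 146 RPKM in alpha and 1.03, 3.12 and 1.51 RPKM in beta (log2 difference 6.09, SE 0.33, adjusted p = 8.1e-05). Gpx3, a secreted glutathione peroxidase, measured 1369.6, 1252 and 1414 RPKM in alpha and 35.1, 51.5 and 27.6 RPKM in beta (log2 difference 5.29, SE 0.19, adjusted p = 2.2e-05). Peg10, an imprinted gene derived from a retrotransposon, measured 45.3, 57.2 and 56.4 RPKM in alpha and 0.386, 1.07 and 0.241 RPKM in beta (log2 difference 5.86, SE 0.26, adjusted p = 3.9e-05). In the beta group replicate 2 was the highest for all of these. Rcn3, a calcium-binding protein of the endoplasmic reticulum, measured 55.2, 45.8 and 42.2 RPKM in alpha and 0.4795, 1.09 and 0.7199 RPKM in beta (log2 difference 5.24, SE 0.21, adjusted p = 2.9e-05). Ttr, the transport protein transthyretin, measured 7285, 5251 and 6272 RPKM in alpha and 137, 175 and 166 RPKM in beta (log2 difference 5.28, SE 0.18, adjusted p = 2.0e-05). Beta cells were the higher group for Fam151a, at 0.282, 0.271 and 0.184 RPKM in alpha and 30.9, 31.5 and 35.6 RPKM in beta (log2 difference -5.54, SE 0.09, adjusted p = 5.7e-06).

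No gene was called for a dependence of the difference on sex. A fit with a term for cell type by sex, with 2 residual degrees of freedom, called 0 genes in limma at an adjusted p under 0.05. At an unadjusted p under 0.05 there were 187 genes, or 1.47% of those tested. Each group held a single library of one sex, alpha replicate 3 and beta replicate 3, so the test had little room. Of the genes tested for sex itself, Xist was called higher in females, and Kdm5d, Eif2s3y, Uty, Ddx3y and the unnamed gene model Gm29650 were called higher in males.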

How the data were processed

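RNA of sorted alpha and beta cells was extracted with Trizol and made into libraries with a TruSeq kit that does not mark strand, per the labels' protocols, so overlapping genes on opposite strands cannot be told apart. The authors deposited 1 table of RPKM values for all libraries. The submitters' processing notes name STAR 2.5, featureCounts, edgeR 3.14.0 and the build GRCm38.p4, without saying which step each served. Values were used as deposited. For 78.5% of the genes matched to the annotation, the RPKM steps gave whole reads within 0.01 read. For 6775 further genes a length was solved such that reads came out whole. Depth was taken from both sets, 26574 genes in all, which also served 1 alternative test.

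The 6 libraries were tested with limma 3.58.1 (R 4.3.3, trended variance) on log2(RPKM + 0.5), with cell type and sex as terms, for genes with at least 1 RPKM in at least 2 libraries. Residual degrees of freedom were 3. Entries with repeated names, 4 in all, were left out. On simulated data of the same 12751 genes, 77 of 100 genes changed by 1 log2 unit and 96 of 100 changed by 2 units were called, with 12 calls among 12551 unchanged genes. No other genes were changed and noise was drawn independently for each library, whereas 51.5% of genes were called in the data. These rates thus describe the simulation and need not hold for the data. Tables and figures were made with Python 3.11.15, pandas 2.3.3 and matplotlib 3.10.9.

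Members and gene lists were chosen with earlier results of these data known. Named were the 15 genes of largest difference in each direction, up to 6 called members in each direction and up to 3 uncalled members of each list, any hormone, processing or transcription factor gene, up to 10 genes per cell type that were nearly silent in the other, the sex-linked checks and 5 promoters. Atf4, Ddit3, Asns, Psat1, Aars, Wars, Eif4ebp1, Ppp1r15a, Vldlr, Hspa5, Creld2, Atf6, Ffar1, Sstr3 and Ptprc were added after values were seen. Alternatives changed the pseudocount, the filter, the covariates, the scaling and the test, averaged libraries that share a title number, or left out libraries. Promoter sequences are RefSeq's. Some results are not reported here.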

Additional observations from a re-analysis of the deposited data

How the results depend on the processing

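The 6571 genes called became 2907 of 4745 tested when genes averaging under 10 RPKM were left out and 4186 without the 2 libraries that held the most acinar RNA, an alternative chosen after seeing the data. With each library left out in turn, calls ranged from 2701 to 6509. The fits without alpha replicate 3 and without beta replicate 3 rested on a single library of the other cell type, as described above. The other alternatives, among them other pseudocounts and scalings and limma voom on recovered reads (6571 calls), gave 6213 to 7656. Averaging libraries that share a title number called 7477 genes, with fewer values and fewer residual degrees of freedom than the main test. The larger number there does not make the differences more certain. Genes called for cell type by sex numbered 619 with no filter on low values, 613 of which did not pass the filter of the main test, and 0 with it. The 49 genes high in one cell type and nearly silent in the other became 123 with 5 RPKM in place of 10 and 23 with 0.5 RPKM in place of 1, and 50 to 59 with each library left out. Kcnj11 changed direction under quantile normalization, to a log2 difference of 0.33. The causes were not tested. No paired analysis was run, as the labels name no pairs and alpha and beta libraries share no number in their titles. The letter in the titles is shared between them, and a fit with it as a further term called 7656 genes. That fit, too, had fewer residual degrees of freedom than the main test. Replicate libraries differed with a chi-square per degree of freedom of 12.2 to 35.3, so their spread and number limited precision beyond counting error.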
